A study of Mus musculus with 3 samples.

Results

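The 57 genes of the chemokine system in mouse skin were described here, 39 chemokines and 18 chemokine receptors of the 33696 genes counted. Members were every gene symbol of the Ccl, Cxcl, Ccr and Cxcr families with a number, together with Xcl1, Xcr1, Cx3cl1 and Cx3cr1. They were taken by symbol, with earlier results of these data known. Back skin was taken from female C57BL/6 mice aged 9 weeks whose hair had been removed with wax, and its dissociated cells were profiled by droplet single-cell RNA sequencing. The 3 groups were a chemotherapy-induced alopecia model given venlafaxine (CIA+VFX), the same model without it (CIA), and vehicle-treated mice (Cont). Each group was 1 library from pooled skin, the number of mice not being stated. With n = 1 per group, every difference below lies between single libraries, without a replicate check or a test. Depilation, strain, sex, age and digestion were common to the 3 groups, and the labels name neither the chemotherapy drug, a dose nor the day of sampling.

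Chemokines are small secreted proteins that direct the migration of cells carrying the matching G protein-coupled receptor. A tissue cell or resident macrophage makes the ligand, and the receptor decides which leukocyte follows it: CXCR2 on neutrophils, CCR2 on monocytes, CXCR3 on interferon-gamma-producing lymphocytes, CCR7 on dendritic cells bound for the lymph node. In skin, keratinocytes, fibroblasts, dermal papilla cells and vessels are all known sources, and the follicle opening is a place where T cells and Langerhans cells gather.

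Levels are given as CPM, the UMIs (counted molecules) of a gene per 1000000 UMIs of the cells considered, and the values of 1 gene are compared across cell types and libraries. Log2 ratios have the first-named group on top, and the range in parentheses after a ratio is an exact conditional binomial interval at 95% that covers counting error only. Every kept cell was classed on its own by 31 lists of marker genes that held none of the 57 members, at least 3 detected markers being required. The resident macrophage list did hold Pf4, a chemokine gene outside the 57. The classes held the keratinocyte, dermal, vascular, pigment and immune cells of skin. Kept cells numbered 15372 in CIA+VFX, 15401 in CIA and 11904 in Cont, with 131973458, 113102222 and 126087177 UMIs, and 21.1%, 19.4% and 23.1% of them met no list. In 22 cell types every library held at least 50 cells, and these were compared. Natural killer cells, neutrophils, basophils and mature dendritic cells, among others, had fewer in at least 1 library, so their levels are given without ratios. The libraries differed in makeup. Vascular endothelial cells were 6.86% of the kept cells of CIA+VFX, 6.43% of those of CIA and 1.96% of those of Cont. Neutrophils were 1.05% of the kept cells of CIA+VFX, 1.17% of those of CIA and 0.202% of those of Cont, and basophils 0.729% of the kept cells of CIA+VFX, 0.747% of those of CIA and 0.0840% of those of Cont. Natural killer cells went the other way, with 0.312% of the kept cells of CIA+VFX, 0.221% of those of CIA and 1.45% of those of Cont. Resident macrophages were 5.31% of the kept cells of CIA+VFX, 7.71% of those of CIA and 10.4% of those of Cont, and fibroblasts 8.63% of the kept cells of CIA+VFX, 14.1% of those of CIA and 10.5% of those of Cont. A level over all kept cells moves with such shares as well as with the RNA of each cell, and for the members the level within a cell type is therefore given beside it. The libraries of a pair had 75 to 110 barcodes in common.

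**Figure D1:**
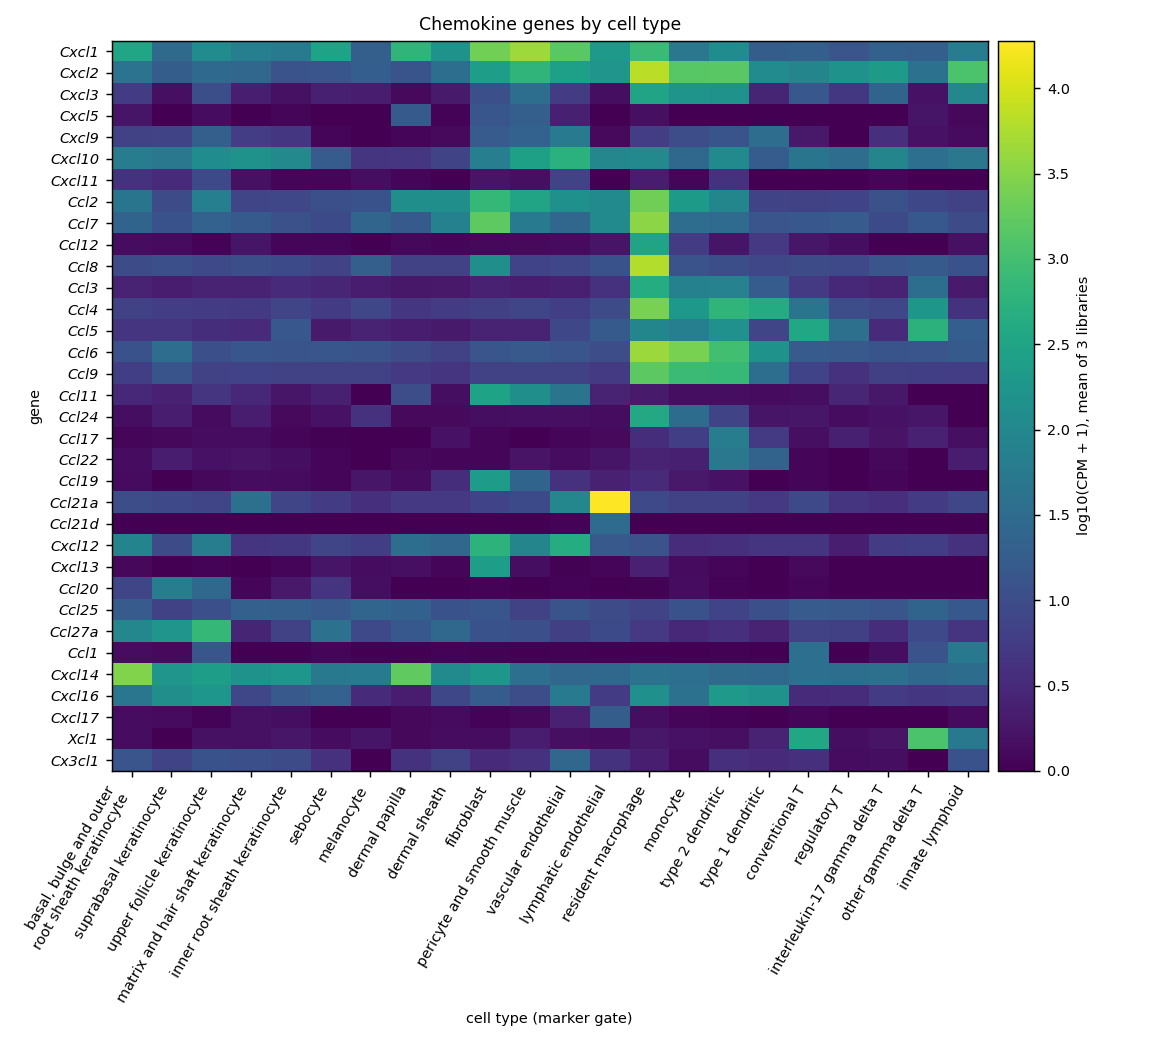
Chemokine genes (rows) with at least 100 UMIs in 22 cell types (columns). Colour is log10(CPM + 1), the mean CPM of the 3 libraries taken first. Resident macrophages have the highest mean of 11 ligands, among them Cxcl2 and Ccl24, whereas Ccl21a is confined largely to lymphatic endothelium, Cxcl14 to basal keratinocytes and dermal papilla, and Xcl1 to T cells.

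Among the compared types, resident macrophages had the highest mean level of 11 of the 34 ligands with at least 100 UMIs, and fibroblasts that of 4. Lymphatic endothelium led for 3 and so did vascular endothelium. Of the receptors, 3 were highest in interleukin-17 gamma delta T cells, 3 in regulatory T cells and none in fibroblasts or endothelium.

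The ligands of CXCR2, which draw neutrophils, divided by source. Among the compared types Cxcl2 and Cxcl3 had their highest mean in resident macrophages, where both stood lower in CIA than in Cont. Cxcl1 and Cxcl5 in fibroblasts stood higher in CIA than in Cont. In resident macrophages Cxcl2 measured 4995 CPM in CIA+VFX, 5136 CPM in CIA and 10059 CPM in Cont, a log2 ratio of -0.97 (-0.99 to -0.95) for CIA against Cont and -0.04 (-0.07 to -0.02) for CIA+VFX against CIA. Both model libraries thus stood at about the same level, below Cont. Cxcl3 gave 241 CPM in CIA+VFX, 171 CPM in CIA and 546 CPM in Cont in the same cells, 3.18-fold lower in CIA than in Cont. Cxcl1 in fibroblasts measured 2039 CPM in CIA+VFX, 3648 CPM in CIA and 1195 CPM in Cont, which is 3.05-fold higher in CIA than in Cont, and a log2 ratio of -0.84 (-0.86 to -0.82) for CIA+VFX against CIA. The fibroblast class was not made of the same cells in the 3 libraries. One cluster held 18.8% of it in CIA+VFX, 15.4% in CIA and 42.0% in Cont, and another held 41.4% in CIA+VFX, 41.2% in CIA and 24.1% in Cont; the part of this in the fibroblast ratios given for Cxcl1 and other members was not tested. Pericytes and smooth muscle cells had the highest mean level of Cxcl1 among the types compared, 4439 CPM in CIA+VFX, 5707 CPM in CIA and 3178 CPM in Cont. Vascular endothelium ran differently, with 1469 CPM in CIA+VFX, 866 CPM in CIA and 2231 CPM in Cont, lowest in CIA. In basal, bulge and outer root sheath keratinocytes Cxcl1 spanned only 361 CPM in CIA+VFX, 316 in CIA and 309 in Cont.

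Cxcl1 measured 571 CPM in CIA+VFX, 958 CPM in CIA and 420.4 CPM in Cont over all kept cells, and Cxcl2 465 CPM in CIA+VFX, 631 CPM in CIA and 1041 CPM in Cont. Cxcl1 was thus highest in CIA and Cxcl2 in Cont. Fibroblasts held 26.0% of the Cxcl1 UMIs in CIA+VFX, 52.2% in CIA and 25.0% in Cont. Resident macrophages held 35.2% of the Cxcl2 UMIs in CIA+VFX, 44.9% in CIA and 53.3% in Cont. Neutrophils and basophils, few in Cont, were also rich in Cxcl2: neutrophils had 15243 CPM in CIA+VFX, 11587 CPM in CIA and 23616 CPM in Cont and basophils 13698 CPM in CIA+VFX, 9946 CPM in CIA and 41792 CPM in Cont, the Cont values resting on 24 and 10 cells. Muscle satellite cells, of which few were caught (26 CIA+VFX, 89 CIA and 38 Cont cells), had the highest Cxcl1 level of any class, 14252 CPM in CIA+VFX, 7750.3 CPM in CIA and 6587 CPM in Cont. Cxcl3 over all kept cells measured 27.1 CPM in CIA+VFX, 39.2 CPM in CIA and 56.3 CPM in Cont. Resident macrophages held 1041 of its 3579 UMIs in CIA+VFX, 1070 of 4430 in CIA and 3798 of 7097 in Cont. Neutrophils, which were not compared, had its highest mean of any class, 1143 CPM. Cxcl5 stood out by its scarcity in Cont. It gave 3.54 CPM in CIA+VFX, 4.53 CPM in CIA and 1.55 CPM in Cont over all kept cells and 19.4 CPM in CIA+VFX, 19.0 CPM in CIA and 0.810 CPM in Cont in fibroblasts, where 186 UMIs were found in 27 CIA+VFX cells, 295 in 50 CIA cells and 9 in 5 Cont cells. Dermal papilla cells held 47.8% of the Cxcl5 UMIs in CIA+VFX, 18.9% in CIA and 68.4% in Cont, at 24.3 CPM in CIA+VFX, 10.2 CPM in CIA and 10.8 CPM in Cont, so there CIA and Cont stood close and CIA+VFX above both. The highest mean of Cxcl5 among the types compared, in pericytes and smooth muscle cells (3.27 CPM in CIA+VFX, 54.0 CPM in CIA and 0 CPM in Cont), rested on 62 CIA UMIs of which 1 cell held 90.3%.

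The windows around the start sites of the clustered Cxcl1, Cxcl2 and Cxcl3 genes are shown because these 3 genes carry the same NF-kappa-B consensus in the same letters while their levels went different ways between the libraries. The sequences are RefSeq windows of GRCm38.p6, 250 bases before to 50 bases after the start, on the plus strand, with the match in capitals; the libraries had been aligned to GRCm39, so these coordinates apply to the older build only.
Cxcl1 chr5:90890995-90891294: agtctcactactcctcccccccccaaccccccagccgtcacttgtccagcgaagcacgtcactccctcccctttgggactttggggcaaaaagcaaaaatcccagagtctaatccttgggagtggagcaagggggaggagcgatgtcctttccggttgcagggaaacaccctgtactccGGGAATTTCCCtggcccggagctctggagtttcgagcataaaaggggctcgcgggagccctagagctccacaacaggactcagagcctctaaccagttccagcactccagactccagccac
Cxcl2 chr5:90903649-90903948: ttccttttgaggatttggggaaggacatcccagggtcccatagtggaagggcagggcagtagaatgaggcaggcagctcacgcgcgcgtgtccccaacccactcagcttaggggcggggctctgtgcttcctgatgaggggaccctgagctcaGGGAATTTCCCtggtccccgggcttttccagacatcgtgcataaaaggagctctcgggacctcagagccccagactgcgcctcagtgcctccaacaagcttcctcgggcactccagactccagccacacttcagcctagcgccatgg
Cxcl3 chr5:90785851-90786150: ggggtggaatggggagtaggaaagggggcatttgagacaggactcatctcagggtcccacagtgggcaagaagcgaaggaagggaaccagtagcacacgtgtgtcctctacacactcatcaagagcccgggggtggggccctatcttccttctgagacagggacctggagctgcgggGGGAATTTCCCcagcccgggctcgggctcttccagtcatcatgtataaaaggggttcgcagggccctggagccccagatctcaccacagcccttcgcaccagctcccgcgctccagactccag
The run in capitals, GGGAATTTCCC, is 11 bases long and holds the 10-letter consensus once on each strand, the matches overlapping by all but 1 base. It begins 71 bases before the start of Cxcl1, 97 before that of Cxcl2 and 73 before that of Cxcl3. Windows were found for 42 of the 57 members. The consensus, searched on both strands, occurred in 9 of these members (Ccl9, Ccl20, Ccl27a, Ccr3, Ccr6, Cxcl1, Cxcl2, Cxcl3 and Cxcl10) and in 5.14% of the 27025 genes with a window. A match is a description of the letters and not of a bound site.

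The interferon-induced ligands of CXCR3, which draw T helper type 1 and cytotoxic lymphocytes, were led by Cxcl10 in vessels, and the vascular endothelium of CIA+VFX had the highest level. In vascular endothelial cells Cxcl10 measured 867 CPM in CIA+VFX, 439.7 CPM in CIA and 302 CPM in Cont. The vascular class was split unevenly between 2 main clusters, the smaller of which held 10.2% of it in CIA+VFX, 8.08% in CIA and 22.7% in Cont, and the part of this was not tested. The Cxcl10 levels are ratios of 0.54 (0.44 to 0.65) for CIA against Cont, 0.98 (0.92 to 1.04) for CIA+VFX against CIA and 1.52 (1.42 to 1.62) for CIA+VFX against Cont. Over all kept cells the levels were 144 CPM in CIA+VFX, 92.6 CPM in CIA and 66.8 CPM in Cont, and vascular endothelium held 52.1% of these UMIs in CIA+VFX, 33.4% in CIA and 10.7% in Cont. Outside vessels the order of the libraries differed between cell types, inner root sheath keratinocytes having that of vascular endothelium and fibroblasts the reverse. Fibroblasts had 42.8 CPM in CIA+VFX, 61.7 CPM in CIA and 93.2 CPM in Cont, lowest in CIA+VFX. Inner root sheath keratinocytes had 135 CPM in CIA+VFX, 105 CPM in CIA and 61.9 CPM in Cont, and basal, bulge and outer root sheath keratinocytes 68.4 CPM in CIA+VFX, 70.9 CPM in CIA and 45.8 CPM in Cont. Cxcl9, another ligand of CXCR3, did not share the pattern in vascular endothelium, where it measured 58.5 CPM in CIA+VFX, 57.4 CPM in CIA and 58.5 CPM in Cont, with a ratio of 0.00 (-0.24 to 0.25) for CIA+VFX against Cont. Cxcl9 gave 10.7 CPM in CIA+VFX, 8.98 CPM in CIA and 9.58 CPM in Cont over all kept cells. Cxcl11, with fewer UMIs, gave 2.99 CPM in CIA+VFX, 2.01 CPM in CIA and 0.920 CPM in Cont over all kept cells. Its highest mean lay in upper follicle keratinocytes, with 21.1 CPM in CIA+VFX, 1.97 CPM in CIA and 0.422 CPM in Cont, where the 81 CIA+VFX UMIs came from 6 cells and 1 of these held 71.6%. In vascular endothelium Cxcl11 was counted with 124 UMIs in CIA+VFX, 63 in CIA and 3 in Cont, the same order as Cxcl10 there.

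The windows of Cxcl10 and Cxcl9, neighbouring genes on the minus strand, are shown because only the first held matches to the searched motifs although vascular endothelium was the leading cell type of both. Capitals mark the interferon-stimulated response element, GAAANNGAAA, and the NF-kappa-B consensus, and the strands are written as transcribed.
Cxcl10 chr5:92348840-92349139: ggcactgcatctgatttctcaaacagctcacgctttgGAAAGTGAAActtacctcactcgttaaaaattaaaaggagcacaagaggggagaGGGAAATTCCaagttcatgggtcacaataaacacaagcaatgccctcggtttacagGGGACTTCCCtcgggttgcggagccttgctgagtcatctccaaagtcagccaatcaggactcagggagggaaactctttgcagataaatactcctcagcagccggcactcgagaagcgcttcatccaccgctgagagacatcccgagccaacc
Cxcl9 chr5:92328030-92328329: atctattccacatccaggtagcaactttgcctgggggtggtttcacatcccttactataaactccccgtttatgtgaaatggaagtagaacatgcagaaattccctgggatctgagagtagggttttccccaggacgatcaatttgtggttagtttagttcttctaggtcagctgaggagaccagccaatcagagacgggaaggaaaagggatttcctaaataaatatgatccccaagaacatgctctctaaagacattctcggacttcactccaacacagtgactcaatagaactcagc
In Cxcl10 the response element begins 213 bases before the start, and NF-kappa-B matches begin 159 and 103 bases before it. The response element, searched on both strands, occurred in 3 of the 42 member windows (Ccl19, Cxcl10 and Cxcl14) and in 3.99% of all windows. No match in the Cxcl9 window says only that those letters are not in it.

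**Figure D2:**
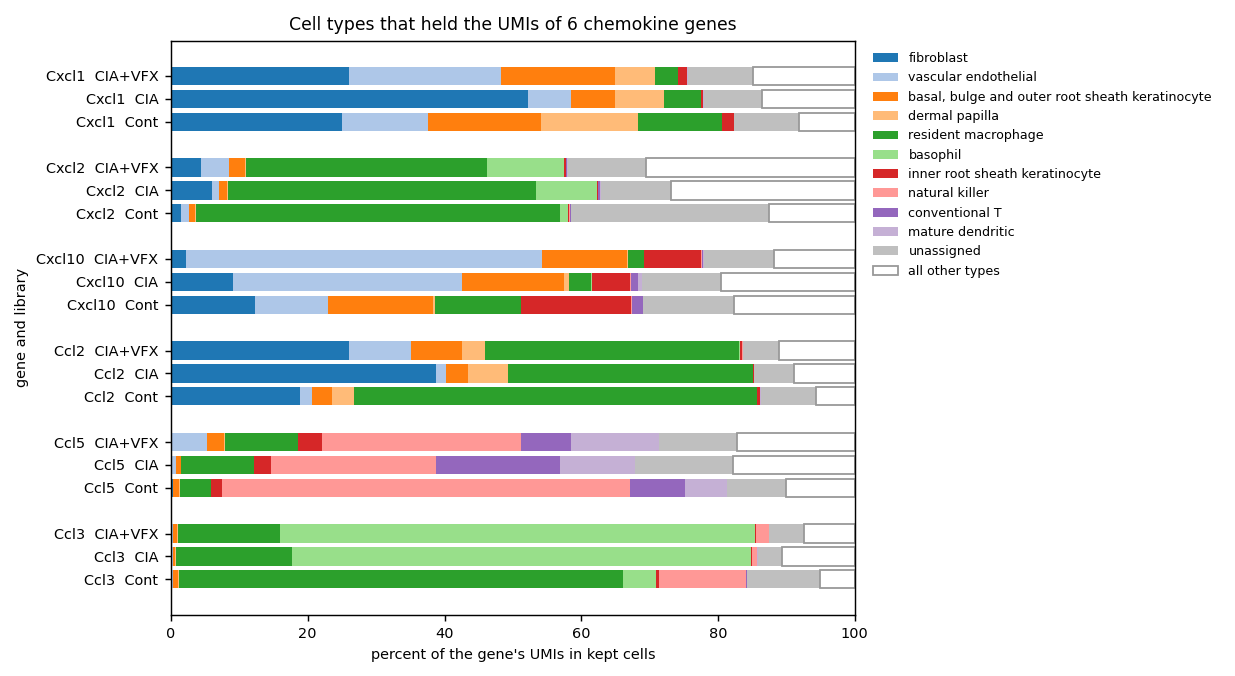
Percent of the UMIs of 6 chemokine genes that each cell type held, by library (rows, CIA+VFX above CIA above Cont for each gene). Vascular endothelium takes 52.1% of Cxcl10 UMIs in CIA+VFX and 33.4% in CIA, fibroblasts 52.2% of Cxcl1 UMIs in CIA, and basophils 67.1% of Ccl3 UMIs in CIA against 4.79% in Cont.

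The ligands of CCR2, which draw monocytes, together with Ccl8 were made by resident macrophages and, for Ccl2 and Ccl7, also by fibroblasts. All 4 stood higher in CIA than in Cont over all kept cells and lower in CIA+VFX than in CIA, and the fibroblast levels of Ccl2 and Ccl7 had that order too. Ccl2 measured 147 CPM in CIA+VFX, 359 CPM in CIA and 256 CPM in Cont over all kept cells, and Ccl7 223 CPM in CIA+VFX, 509.9 CPM in CIA and 352 CPM in Cont. In fibroblasts Ccl2 gave 523 CPM in CIA+VFX, 1015 CPM in CIA and 546 CPM in Cont, so CIA stood at 1.86 times the Cont level, and the ratio of CIA+VFX to CIA was -0.96 on the log2 scale. In resident macrophages Ccl2 was instead highest in Cont, with 1668 CPM in CIA+VFX, 2326 CPM in CIA and 2736 CPM in Cont. Dermal papilla cells, the signalling centre at the base of the follicle, had 70.7 CPM in CIA+VFX, 249.9 CPM in CIA and 83.1 CPM in Cont, 3.01-fold higher in CIA than in Cont. Ccl7 measured 1467 CPM in CIA+VFX, 2144 CPM in CIA and 1385 CPM in Cont in fibroblasts and 2923 CPM in CIA+VFX, 3406 CPM in CIA and 3759 CPM in Cont in resident macrophages. The share of Ccl2 UMIs held by fibroblasts was 26.0% in CIA+VFX, 38.8% in CIA and 18.8% in Cont, and that of resident macrophages 37.3% in CIA+VFX, 35.8% in CIA and 58.9% in Cont.

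Ccl8 and Ccl12 were nearly all macrophage transcripts. Resident macrophages held 93.3% of the Ccl8 UMIs in CIA+VFX, 93.0% in CIA and 93.3% in Cont, and 97.0% of the Ccl12 UMIs in CIA+VFX, 95.7% in CIA and 96.8% in Cont. The Ccl8 level there was 6712 CPM in CIA+VFX, 6935 CPM in CIA and 4843 CPM in Cont, a ratio of 0.52 (0.50 to 0.54) for CIA against Cont and -0.05 (-0.07 to -0.03) for CIA+VFX against CIA. Both model libraries stood above Cont. Ccl8 gave 236 CPM in CIA+VFX, 412 CPM in CIA and 287 CPM in Cont over all kept cells. Ccl12, a mouse ligand of CCR2, measured 331 CPM in CIA+VFX, 342 CPM in CIA and 283 CPM in Cont in resident macrophages and 11.2 CPM in CIA+VFX, 19.7 CPM in CIA and 16.1 CPM in Cont over all kept cells. The log2 ratio of Ccl12 there, 0.27 when CIA is set against Cont and 0.23 when CIA+VFX is, lay near the median of all genes measured in these cells, 0.12 and 0.21. Resident macrophages thus did not differ in 1 direction: Ccl8 was higher in both model libraries than in Cont, and Cxcl2, Cxcl3 and Ccl2 lower. The summed level of 14 immediate early and dissociation-induced genes, a list made after the data had been seen, was 12801 CPM in the resident macrophages of CIA+VFX, 12888 CPM in those of CIA and 13502 CPM in those of Cont. Its genes lay on both sides of 0 for CIA against Cont, between -2.31 for Egr1 and 1.30 for Hspa1a. In fibroblasts the same genes summed to 18291 CPM in CIA+VFX, 19927 CPM in CIA and 24117 CPM in Cont, and lay between -0.79 for Dusp1 and 0.84 for Ier3 for CIA against Cont. The cluster that held 95.7% to 99.6% of the monocytes also held 21.1% of these macrophages in CIA+VFX, 22.5% in CIA and 5.43% in Cont, so the class was not made of the same cells in the 3 libraries; the part of this in the ratios was not tested.

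Among the inflammatory CC ligands, which act on macrophages, dendritic cells and T cells, Ccl5 set CIA and CIA+VFX furthest apart from Cont. Ccl5 measured 31.5 CPM in CIA+VFX, 26.4 CPM in CIA and 148 CPM in Cont over all kept cells, 5.61-fold lower in CIA than in Cont. Natural killer cells held 29.2% of its UMIs in CIA+VFX, 24.1% in CIA and 59.6% in Cont, and those cells numbered 48 CIA+VFX, 34 CIA and 173 Cont cells. Within them the levels were 6193 CPM in CIA+VFX, 4282 CPM in CIA and 9792 CPM in Cont. Within conventional T cells, which were compared, Ccl5 gave 178 CPM in CIA+VFX, 261 CPM in CIA and 644 CPM in Cont, a ratio of -1.30 (-1.45 to -1.16) for CIA against Cont. Other gamma delta T cells had the highest mean among the compared types, 179 CPM in CIA+VFX, 329 CPM in CIA and 1187 CPM in Cont. Markers of other cells differed in the same direction in that class: the 7 natural killer markers summed to 275 CPM in CIA+VFX, 251 CPM in CIA and 928 CPM in Cont, and the 5 interleukin-17 gamma delta T markers that the class does not use to 240.5 CPM in CIA+VFX, 269 CPM in CIA and 687 CPM in Cont. The 9 conventional T cell markers differed in the other direction, with 3707 CPM in CIA+VFX, 3422 CPM in CIA and 2223 CPM in Cont. In conventional T cells the natural killer markers summed to 57.5 CPM in CIA+VFX, 99.7 CPM in CIA and 85.6 CPM in Cont. Their part in the Ccl5 levels was not tested.

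For CIA against Cont, Ccl3 was higher and Ccl4 lower over all kept cells, but both were lower within resident macrophages. Ccl3 measured 63.8 CPM in CIA+VFX, 96.7 CPM in CIA and 61.5 CPM in Cont over all kept cells and 289 CPM in CIA+VFX, 298 CPM in CIA and 724 CPM in Cont in resident macrophages, 2.43-fold lower in CIA than in Cont. Ccl4 measured 196 CPM in CIA+VFX, 235 CPM in CIA and 300.5 CPM in Cont over all kept cells and 2296 CPM in CIA+VFX, 1753 CPM in CIA and 3804 CPM in Cont in resident macrophages. Basophils held 69.5% of the Ccl3 UMIs in CIA+VFX, 67.1% in CIA and 4.79% in Cont, and their own level was nearly flat, 11593 CPM in CIA+VFX, 11349 CPM in CIA and 11243 CPM in Cont. They also had 18159 CPM in CIA+VFX, 14896 CPM in CIA and 18668 CPM in Cont of Ccl4, the Cont value again from 10 cells. In type 2 dendritic cells Ccl4 stood apart in CIA+VFX, with 991 CPM in CIA+VFX, 414 CPM in CIA and 508 CPM in Cont. Ccl6 and Ccl9, ligands of CCR1 known from mice, were macrophage and monocyte transcripts that basophils carried too. Ccl6 gave 279 CPM in CIA+VFX, 511 CPM in CIA and 452 CPM in Cont over all kept cells and 3755 CPM in CIA+VFX, 4863 CPM in CIA and 4288 CPM in Cont in resident macrophages. In monocytes Ccl6 measured 2598 CPM in CIA+VFX, 2444 CPM in CIA and 2738 CPM in Cont, close to level. Ccl9 gave 102 CPM in CIA+VFX, 160.4 CPM in CIA and 222 CPM in Cont over all kept cells and 1464 CPM in CIA+VFX, 1451 CPM in CIA and 1904 CPM in Cont in resident macrophages, with both model libraries below Cont. Basophils had 13856 CPM in CIA+VFX, 12241 CPM in CIA and 5697 CPM in Cont of Ccl6 and 2723 CPM in CIA+VFX, 1879 CPM in CIA and 1667 CPM in Cont of Ccl9, the Cont values from 10 cells. They held 19.0% of the Ccl6 UMIs in CIA+VFX, 13.7% in CIA and 0.330% in Cont, and 10.2% of the Ccl9 UMIs in CIA+VFX, 6.70% in CIA and 0.196% in Cont.

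The eotaxins, which draw eosinophils through CCR3, came from different sources, and Ccl26 was too scarce to use. Ccl11 came from fibroblasts, with 256 CPM in CIA+VFX, 348 CPM in CIA and 307 CPM in Cont, and over all kept cells gave 27.2 CPM in CIA+VFX, 55.0 CPM in CIA and 30.8 CPM in Cont. In pericytes and smooth muscle cells it measured 170.2 CPM in CIA+VFX, 217 CPM in CIA and 21.7 CPM in Cont, the Cont value resting on 11 UMIs in 4 cells. The 9 fibroblast markers in that class summed to 1860 CPM in CIA+VFX, 1536 CPM in CIA and 638 CPM in Cont, and their part in the Ccl11 levels was not tested. In vascular endothelium it was lowest in CIA, with 54.0 CPM in CIA+VFX, 11.6 CPM in CIA and 64.1 CPM in Cont. Ccl24 came from resident macrophages, with 389 CPM in CIA+VFX, 452 CPM in CIA and 316 CPM in Cont, and gave 14.5 CPM in CIA+VFX, 29.1 CPM in CIA and 20.3 CPM in Cont over all kept cells. Eosinophils were not among the marker lists.

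Ccl17 and Ccl22, ligands of CCR4 on regulatory and skin-homing T cells, belonged to dendritic cells. Mature dendritic cells, 51 in CIA+VFX, 44 in CIA and 30 in Cont, held 73.5% of the Ccl22 UMIs in CIA+VFX, 60.4% in CIA and 59.7% in Cont, with 1704 CPM in CIA+VFX, 2255 CPM in CIA and 4892 CPM in Cont. Among compared types, type 2 dendritic cells led, with 37.5 CPM in CIA+VFX, 66.6 CPM in CIA and 48.1 CPM in Cont of Ccl22 and 32.8 CPM in CIA+VFX, 84.7 CPM in CIA and 75.4 CPM in Cont of Ccl17. For Ccl17 in these cells CIA+VFX against CIA was -1.37 (-1.71 to -1.04), and in Cont 1 cell held 30.6% of the UMIs. Mature dendritic cells had 265 CPM in CIA+VFX, 608 CPM in CIA and 479 CPM in Cont of Ccl17, so both genes were lowest there in CIA+VFX. Over all kept cells Ccl22 gave 9.08 CPM in CIA+VFX, 12.0 CPM in CIA and 17.8 CPM in Cont and Ccl17 3.30 CPM in CIA+VFX, 6.26 CPM in CIA and 6.67 CPM in Cont.

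Ccl19 and Ccl21a, the ligands of CCR7 that guide dendritic cells and T cells towards lymph, had separate sources. Ccl21a was nearly all in lymphatic endothelium, 94.4% of its UMIs in CIA+VFX, 94.3% in CIA and 97.6% in Cont, at 15809.5 CPM in CIA+VFX, 24185 CPM in CIA and 16907 CPM in Cont. CIA stood above both other libraries there, with 0.52 (0.49 to 0.54) against Cont and -0.61 (-0.63 to -0.59) for CIA+VFX against CIA. Its level over all kept cells was 283 CPM in CIA+VFX, 373 CPM in CIA and 204 CPM in Cont. Ccl19 was a fibroblast transcript at 175 CPM in CIA+VFX, 255 CPM in CIA and 248 CPM in Cont, and gave 15.4 CPM in CIA+VFX, 36.1 CPM in CIA and 22.6 CPM in Cont over all kept cells. Ccl21d, with 17.5 CPM in CIA+VFX, 36.5 CPM in CIA and 36.4 CPM in Cont in lymphatic endothelium and 0.311 CPM in CIA+VFX, 0.557 CPM in CIA and 0.428 CPM in Cont over all kept cells, is a near copy of Ccl21a. Of the 31-base words of the GRCm38 transcripts, 80.6% of those of Ccl21a, 97.1% of those of Ccl21d and 58.8% of those of Ccl19 occur in other genes, so the counts of these genes are uncertain.

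Cxcl12, the ligand of CXCR4 that retains stem cells and leukocytes, was found in fibroblasts and vascular endothelium, and the order of the libraries in one was the reverse of that in the other. Fibroblasts had 737 CPM in CIA+VFX, 527 CPM in CIA and 508 CPM in Cont, highest in CIA+VFX, with 0.48 (0.44 to 0.53) for CIA+VFX against CIA. Vascular endothelium had 324 CPM in CIA+VFX, 429 CPM in CIA and 559.8 CPM in Cont, lowest in CIA+VFX, with -0.41 (-0.47 to -0.34). Its level over all kept cells was 115 CPM in CIA+VFX, 131 CPM in CIA and 88.3 CPM in Cont. Cxcl13, the ligand of CXCR5 that places B cells, was confined largely to fibroblasts, with 177 CPM in CIA+VFX, 291 CPM in CIA and 253 CPM in Cont there and 13.1 CPM in CIA+VFX, 40.3 CPM in CIA and 22.5 CPM in Cont over all kept cells.

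Epithelial ligands were placed along the follicle and epidermis. Cxcl14, a chemokine of healthy epithelium, was highest in basal, bulge and outer root sheath keratinocytes, with 2189 CPM in CIA+VFX, 2837 CPM in CIA and 3852 CPM in Cont. It stood lowest in CIA+VFX there, -0.82 (-0.83 to -0.80) against Cont. Dermal papilla cells had 1409 CPM in CIA+VFX, 2048 CPM in CIA and 1631 CPM in Cont, and all kept cells 763 CPM in CIA+VFX, 819.7 CPM in CIA and 1117 CPM in Cont. This epithelial class thus had less Cxcl14 in both model libraries than in Cont. The class was mixed: 7 clusters each held over 5% of its cells, the largest 29.9%. The part of its makeup in the ratios was not tested. Ccl27a, the keratinocyte ligand of CCR10, belonged to upper follicle keratinocytes, with 667 CPM in CIA+VFX, 316 CPM in CIA and 1153 CPM in Cont, 3.65-fold lower in CIA than in Cont and 2.11-fold higher in CIA+VFX than in CIA. Suprabasal keratinocytes had the same order, 159 CPM in CIA+VFX, 97.7 CPM in CIA and 260.5 CPM in Cont. The 8 inner root sheath markers in that class summed to 2074 CPM in CIA+VFX, 283 CPM in CIA and 1292 CPM in Cont, and their part was not tested. All kept cells gave 52.5 CPM in CIA+VFX, 30.5 CPM in CIA and 57.1 CPM in Cont of Ccl27a. Of the 31-base words of Ccl27a, 57.0% occur in other genes, so its count is uncertain.

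Ccl20, the ligand of CCR6, had its highest mean in suprabasal keratinocytes, 27.0 CPM in CIA+VFX, 71.3 CPM in CIA and 88.1 CPM in Cont, but single cells carried it: 1 cell held 25.6% of the CIA+VFX, 59.3% of the CIA and 75.8% of the Cont UMIs. Without the highest cell of each library the ratio of CIA+VFX to Cont was -0.27, against -1.71 with it. Over all kept cells Ccl20 measured 3.20 CPM in CIA+VFX, 4.93 CPM in CIA and 1.92 CPM in Cont, 2.57-fold higher in CIA than in Cont. Cxcl16, the ligand of CXCR6, was spread over dendritic cells and upper follicle keratinocytes. Type 2 dendritic cells had 197 CPM in CIA+VFX, 249.5 CPM in CIA and 141 CPM in Cont, highest in CIA. Upper follicle keratinocytes had 161 CPM in CIA+VFX, 134 CPM in CIA and 226 CPM in Cont, lowest in CIA, and all kept cells 47.6 CPM in CIA+VFX, 57.8 CPM in CIA and 36.6 CPM in Cont. The 2 sources thus ranked the libraries differently. Cxcl17, a mucosal ligand, appeared in lymphatic endothelium with 30 UMIs in CIA+VFX, 44 in CIA and 17 in Cont, that is 13.5 CPM in CIA+VFX, 26.7 CPM in CIA and 11.4 CPM in Cont, and gave 0.568 CPM in CIA+VFX, 0.796 CPM in CIA and 0.412 CPM in Cont over all kept cells.

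Xcl1, the lymphocyte ligand of XCR1 on type 1 dendritic cells, was made by other gamma delta T cells at 1143 CPM in CIA+VFX, 970.3 CPM in CIA and 1359 CPM in Cont and by conventional T cells at 351 CPM in CIA+VFX, 225 CPM in CIA and 542 CPM in Cont. Over all kept cells it measured 21.8 CPM in CIA+VFX, 18.9 CPM in CIA and 60.1 CPM in Cont, 3.18-fold lower in CIA than in Cont. In natural killer cells it differed little between libraries, 1918 CPM in CIA+VFX, 1607 CPM in CIA and 1644 CPM in Cont, and cells with no type held 40.9% of its UMIs in CIA+VFX, 42.8% in CIA and 49.4% in Cont. Cx3cl1, the membrane-bound ligand of CX3CR1, had its highest mean in vascular endothelium at 25.3 CPM in CIA+VFX, 24.5 CPM in CIA and 23.7 CPM in Cont, and gave 8.98 CPM in CIA+VFX, 7.52 CPM in CIA and 8.06 CPM in Cont over all kept cells. Ccl1, a ligand of CCR8, had its highest mean among compared types in innate lymphoid cells, at 33.4 CPM in CIA+VFX, 55.6 CPM in CIA and 67.4 CPM in Cont. Over all kept cells Ccl1 gave 1.73 CPM in CIA+VFX, 3.14 CPM in CIA and 2.04 CPM in Cont. In mast cells, 33 in CIA+VFX, 24 in CIA and 11 in Cont, Ccl1 was counted with 2 UMIs in CIA+VFX, 75 in CIA and 0 in Cont, the CIA UMIs lying in 7 cells. Ccl25, the ligand of CCR9, had no clear source: it gave 15.5 CPM in CIA+VFX, 13.3 CPM in CIA and 15.8 CPM in Cont over all kept cells and its highest mean among compared types, in melanocytes, was 20.8 CPM in CIA+VFX, 26.4 CPM in CIA and 25.4 CPM in Cont from 16, 11 and 23 UMIs.

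**Figure D3:**
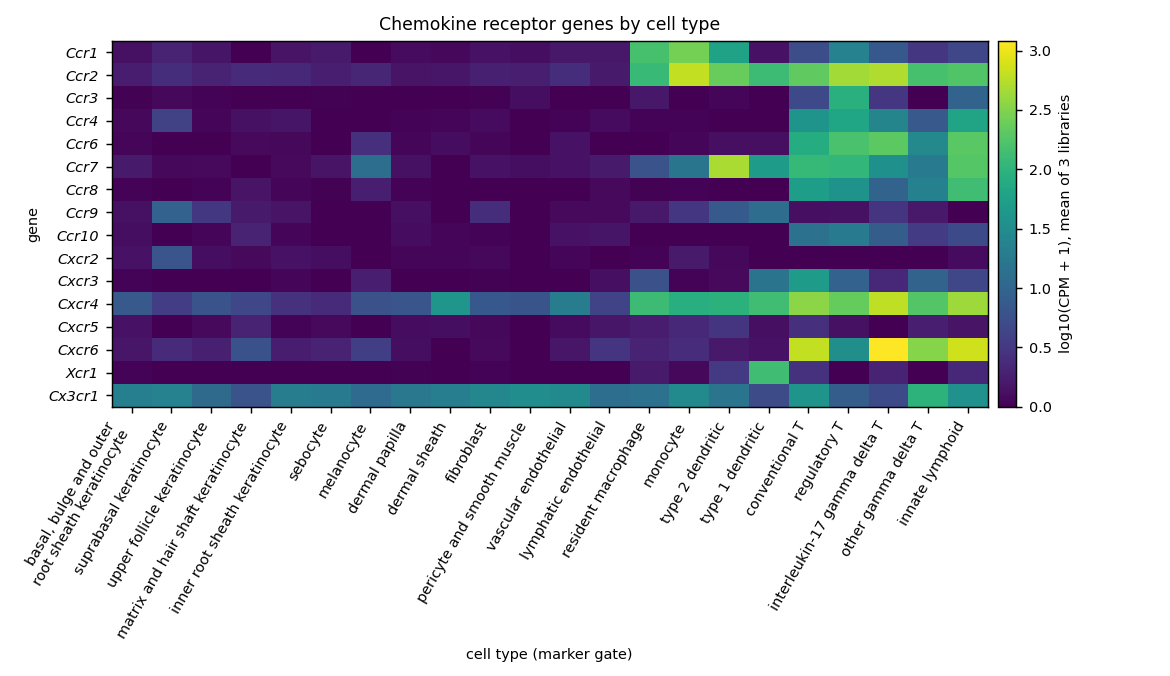
Chemokine receptor genes (rows), 16 with at least 100 UMIs, in 22 cell types (columns). Colour is log10(CPM + 1), the mean CPM of the 3 libraries taken first. Most receptors are confined to leukocytes, whereas Cx3cr1 lies at a low level in every type; Cxcr2 is near 0 because neutrophils, which held 43.1% to 78.2% of its UMIs, are not among these types.

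The receptors marked the receiving leukocytes. Cxcr2, the receptor of neutrophils, measured 2.24 CPM in CIA+VFX, 3.29 CPM in CIA and 0.571 CPM in Cont over all kept cells, 5.76-fold higher in CIA than in Cont, which was the highest ratio of any member in that comparison. Neutrophils held 68.6% of its UMIs in CIA+VFX, 78.2% in CIA and 43.1% in Cont. Within neutrophils the level was 587 CPM in CIA+VFX, 663 CPM in CIA and 567 CPM in Cont, with Poisson intervals of 509 to 673 in CIA+VFX, 589 to 744 in CIA and 385 to 805 in Cont that overlap. Neutrophils numbered 161 CIA+VFX, 180 CIA and 24 Cont cells. The levels within neutrophils thus overlapped within counting error, while the neutrophils themselves differed in number. Among the compared types Cxcr2 reached at most 8.57 CPM, in CIA+VFX suprabasal keratinocytes, where it was counted with 26 UMIs in CIA+VFX, 13 in CIA and 1 in Cont.

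Monocytes, which numbered 467 CIA+VFX, 807 CIA and 70 Cont cells, led for Ccr2 and Ccr1, receptors of macrophage and monocyte attractants. Ccr2 had 678 CPM in CIA+VFX, 571 CPM in CIA and 637 CPM in Cont in monocytes and 46.4 CPM in CIA+VFX, 60.4 CPM in CIA and 57.5 CPM in Cont over all kept cells. In interleukin-17 gamma delta T cells, the next type in mean level, Ccr2 measured 679 CPM in CIA+VFX, 459 CPM in CIA and 413 CPM in Cont, highest in CIA+VFX. Ccr1 gave 341 CPM in CIA+VFX, 292 CPM in CIA and 184 CPM in Cont in monocytes and 19.3 CPM in CIA+VFX, 27.2 CPM in CIA and 21.8 CPM in Cont over all kept cells, so the monocytes of CIA carried 1.59 times the Cont level. Neutrophils had more Ccr1 than monocytes, 792 CPM in CIA+VFX, 597 CPM in CIA and 1061 CPM in Cont. For Ccr2 the monocyte levels of CIA and Cont differed by less than 1.5-fold.

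Interleukin-17 gamma delta T cells, resident in mouse dermis, led for Cxcr6, Cxcr4 and Ccr6. Cxcr6 measured 1316 CPM in CIA+VFX, 1373 CPM in CIA and 934 CPM in Cont, higher in both model libraries than in Cont, and 27.5 CPM in CIA+VFX, 50.6 CPM in CIA and 32.3 CPM in Cont over all kept cells. Cxcr4 measured 576 CPM in CIA+VFX, 705 CPM in CIA and 574 CPM in Cont, and 35.1 CPM in CIA+VFX, 57.9 CPM in CIA and 45.7 CPM in Cont over all kept cells. Ccr6, the receptor of Ccl20, measured 143 CPM in CIA+VFX, 235 CPM in CIA and 220.5 CPM in Cont, lowest in CIA+VFX, with -0.72 (-1.01 to -0.44) against CIA. Innate lymphoid cells had the same order for Ccr6, 144 CPM in CIA+VFX, 257 CPM in CIA and 181 CPM in Cont. Over all kept cells Ccr6 gave 4.18 CPM in CIA+VFX, 11.9 CPM in CIA and 7.22 CPM in Cont, 2.85-fold lower in CIA+VFX than in CIA. Cells of the interleukin-17 class were 1.69% of the kept cells of CIA+VFX, 2.68% of those of CIA and 2.58% of those of Cont.

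Ccr7, which takes dendritic cells to lymph nodes, measured 408 CPM in CIA+VFX, 722 CPM in CIA and 322 CPM in Cont in type 2 dendritic cells, 2.24-fold higher in CIA than in Cont, and 28.3 CPM in CIA+VFX, 47.7 CPM in CIA and 35.6 CPM in Cont over all kept cells. Mature dendritic cells had 2795 CPM in CIA+VFX, 2926 CPM in CIA and 4563 CPM in Cont. When types were taken from clusters instead, the ratio of CIA to Cont in the cluster named type 2 dendritic was -0.13, but that cluster is a broader class: it held 72.8% of the type 2 dendritic cells together with 96.0% of the mature, 99.2% of the type 1 dendritic and 91.6% of the Langerhans cells. Xcr1, a defining receptor of type 1 dendritic cells, was level there, with 128 CPM in CIA+VFX, 139 CPM in CIA and 141 CPM in Cont and -0.14 (-0.54 to 0.26) for CIA+VFX against Cont, and gave 1.21 CPM in CIA+VFX, 1.74 CPM in CIA and 1.61 CPM in Cont over all kept cells. Ccr9 was faint, with 1.20 CPM in CIA+VFX, 1.18 CPM in CIA and 1.54 CPM in Cont over all kept cells and a highest mean in type 1 dendritic cells of 18.3 CPM in CIA+VFX, 7.88 CPM in CIA and 8.81 CPM in Cont from 15, 8 and 7 UMIs.

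Ccr4, Ccr8 and Ccr10 are receptors of skin-homing and regulatory T cells, and Ccr3 is the receptor of the eotaxins. Among the classes, which included none for eosinophils, these receptors were highest in regulatory T cells or innate lymphoid cells. Ccr4 gave 67.8 CPM in CIA+VFX, 47.2 CPM in CIA and 74.4 CPM in Cont in regulatory T cells and 1.94 CPM in CIA+VFX, 2.46 CPM in CIA and 2.62 CPM in Cont over all kept cells. Ccr3 gave 67.8 CPM in CIA+VFX, 74.7 CPM in CIA and 125 CPM in Cont in regulatory T cells and 0.682 CPM in CIA+VFX, 0.707 CPM in CIA and 1.26 CPM in Cont over all kept cells. Ccr10, the receptor of Ccl27a, gave 10.2 CPM in CIA+VFX, 12.2 CPM in CIA and 30 CPM in Cont in regulatory T cells, from 9, 8 and 23 UMIs, and 0.470 CPM in CIA+VFX, 0.530 CPM in CIA and 1.08 CPM in Cont over all kept cells. Ccr8 gave 129 CPM in CIA+VFX, 146 CPM in CIA and 138 CPM in Cont in innate lymphoid cells and 2.42 CPM in CIA+VFX, 3.77 CPM in CIA and 3.88 CPM in Cont over all kept cells. All 4 were lower in CIA+VFX than in Cont over all kept cells. Cxcr3, the receptor of Cxcl9 to Cxcl11, gave 47.4 CPM in CIA+VFX, 29.5 CPM in CIA and 70.6 CPM in Cont in conventional T cells, 2.39-fold lower in CIA than in Cont, and 1.17 CPM in CIA+VFX, 1.25 CPM in CIA and 2.44 CPM in Cont over all kept cells. Its ligand Cxcl10 and its own level thus stood in opposite orders between CIA and Cont over all kept cells.

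Cx3cr1 measured 80.8 CPM in CIA+VFX, 80.1 CPM in CIA and 133 CPM in Cont in other gamma delta T cells and 20.5 CPM in CIA+VFX, 23.1 CPM in CIA and 20.2 CPM in Cont over all kept cells. It was also found at 21.5 CPM in CIA+VFX, 26.0 CPM in CIA and 12.8 CPM in Cont in basal, bulge and outer root sheath keratinocytes, and at 12.5 CPM in CIA+VFX, 14.1 CPM in CIA and 14.5 CPM in Cont in resident macrophages, so it did not separate leukocytes from epithelium. Cxcr5, a receptor of B cells, had 0.553 CPM in CIA+VFX, 0.584 CPM in CIA and 0.595 CPM in Cont over all kept cells, and its highest mean among compared types, in type 2 dendritic cells, was 1.99 CPM in CIA+VFX, 1.84 CPM in CIA and 2.15 CPM in Cont from 6, 7 and 11 UMIs. The few B and plasma cells, 5 CIA+VFX, 2 CIA and 13 Cont cells, gave 9 UMIs in CIA+VFX, 0 in CIA and 3 in Cont.

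The 6 remaining members had under 100 UMIs in all. Ccl28 had 49, Ccl26 had 21, Ccl21b had 19, Cxcr1 had 9, and Ccl27b and Cxcl15 had 2 each. No level or ratio is drawn from them.

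**Figure D4:**
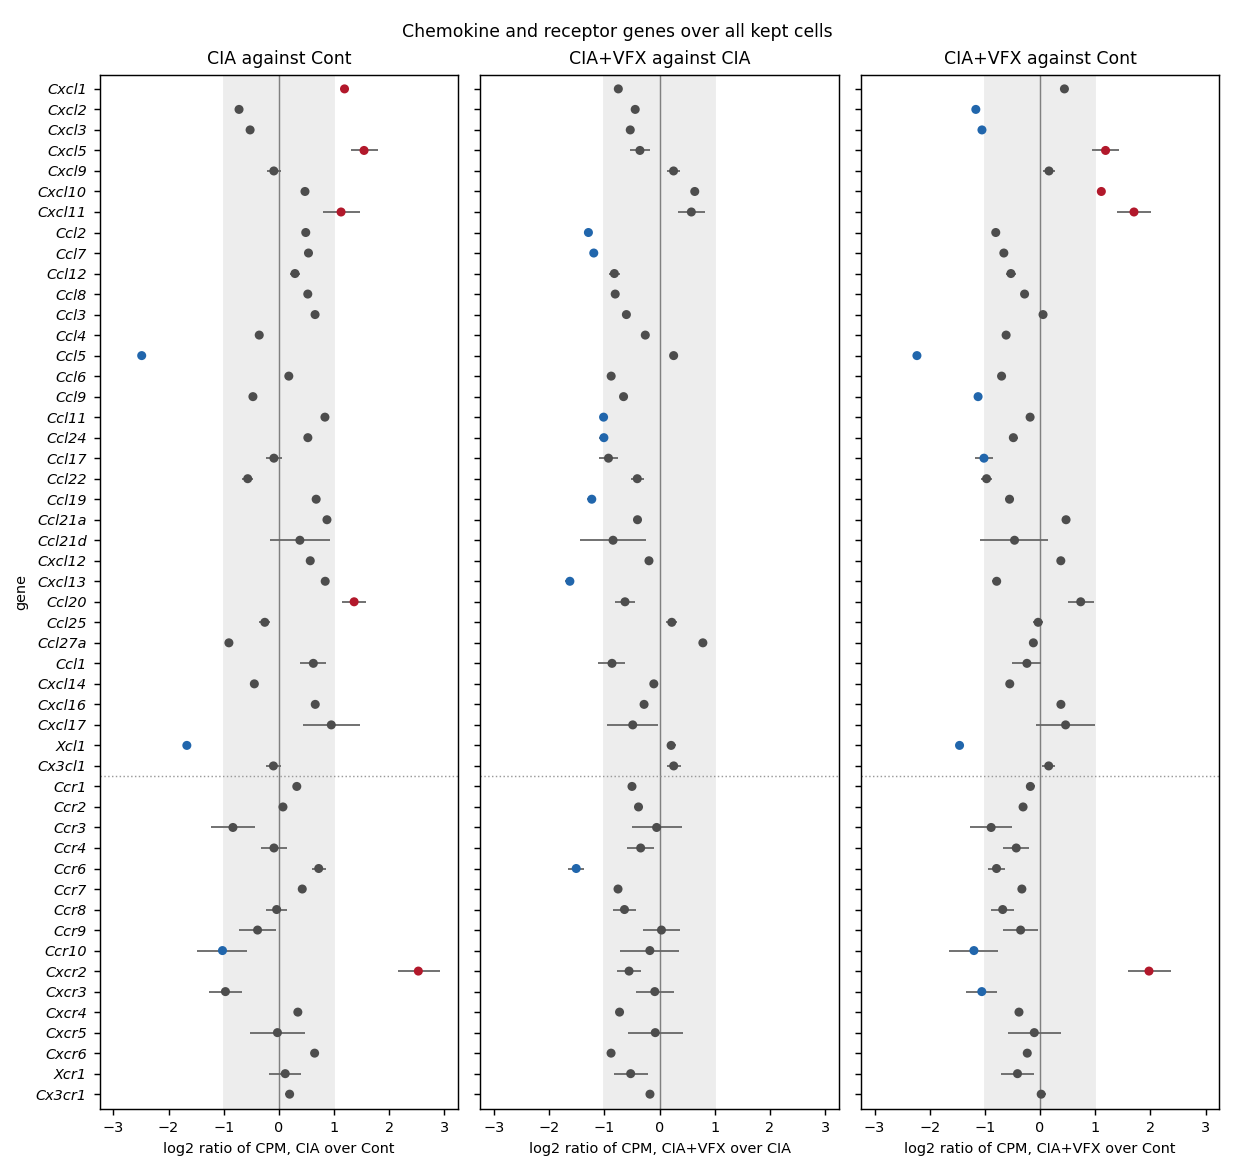
Log2 ratio of CPM over all kept cells for 50 members with at least 100 UMIs, in the 3 comparisons (panels, first-named group on top of the ratio). Lines are counting intervals, the grey band is less than 2-fold, red is at least 2-fold higher and blue at least 2-fold lower. Most points of the middle panel lie left of 0, and none reaches 2-fold higher.

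The comparisons asked which members differed in the model, which differed with venlafaxine in the model, and which differed from vehicle-treated skin with both. A member counted as measured with at least 50 UMIs in the 2 libraries, which 51 members reached in each comparison, and as called at a 2-fold ratio. For CIA against Cont over all kept cells 5 members were called higher, 9.80% of those measured against 4.87% of all 19251 measured genes. They were Cxcr2, Cxcl5, Ccl20, Cxcl1 and Cxcl11. Called lower were 3, Ccl5, Xcl1 and Ccr10, 5.88% against 2.44%. The median log2 ratio was 0.29 over the members and 0.04 over all measured genes. Of the 5 called higher, 3 had enough UMIs in their leading cell type: Cxcl5 was called higher there too, against 0 Cont UMIs and with 1 cell holding most of the CIA UMIs, while Cxcl1 (0.84 in pericytes and smooth muscle cells) and Ccl20 (-0.31 in suprabasal keratinocytes) were not. Of the 3 called lower, Ccl5 was also called in its leading type (-1.85 in other gamma delta T cells), Xcl1 was not (-0.49 there), and Ccr10 had too few UMIs.

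For CIA+VFX against CIA 0 members were called higher, where 1.12% of all 19327 measured genes were, and 7 were called lower, 13.7% against 2.03%. Cxcl13 gave -1.62 (-1.71 to -1.54), Ccr6 -1.51 (-1.66 to -1.37), Ccl2 -1.29 (-1.31 to -1.26), Ccl19 -1.23 (-1.31 to -1.15), Ccl7 -1.19 (-1.21 to -1.17), Ccl11 -1.01 (-1.07 to -0.95) and Ccl24 -1.01 (-1.09 to -0.93). Altogether 42 of the 51 members lay below 0 and 9 above, with a median of -0.50 against 0.02 for all measured genes. Within the leading cell type all 7 were under 2-fold: -0.72 for Cxcl13, -0.54 for Ccl19 and -0.44 for Ccl11 in fibroblasts, -0.48 for Ccl2, -0.22 for Ccl7 and -0.22 for Ccl24 in resident macrophages, and -0.72 for Ccr6 in interleukin-17 gamma delta T cells. Fibroblasts were 8.63% of kept cells in CIA+VFX and 14.1% in CIA, resident macrophages 5.31% and 7.71%, and interleukin-17 gamma delta T cells 1.69% and 2.68%. The lower level over all cells thus went with a smaller share of these cells as well as with a lower level within them. Members did not lie below 0 in every cell type. Their median for CIA+VFX against CIA was 0.22 in vascular endothelium (24 members, -0.03 for all genes measured there), 0.22 in type 2 dendritic cells (22 members, 0.04) and 0.28 in innate lymphoid cells (16 members, -0.03). It was 0.08 in resident macrophages (25 members, 0.07), -0.19 in fibroblasts (23 members, 0.08), -0.37 in basal, bulge and outer root sheath keratinocytes (26 members, -0.04) and -0.54 in dermal papilla cells (19 members, 0.01). In vascular endothelium 6 of the 24 members were called higher, where 1.86% of 11426 genes were, and 2 lower, where 0.613% were. Those higher were Ccl19 (4.21), Ccl5 (3.20), Cxcl3 (2.82), Ccl11 (2.22), Cxcl2 (1.35) and Ccl2 (1.05), and those lower Ccl21a (-1.38) and Ccl8 (-1.28). In CIA+VFX 1 cell held 11.2% of the Ccl19, 50.2% of the Ccl5 and 26.8% of the Cxcl3 UMIs. Markers of other cells differed in that class too. The 9 fibroblast markers summed to 327 CPM in CIA+VFX, 121 CPM in CIA and 340 CPM in Cont, the 8 pericyte and smooth muscle markers to 708 CPM in CIA+VFX, 290 CPM in CIA and 776 CPM in Cont, and the 7 lymphatic endothelial markers to 122 CPM in CIA+VFX, 179 CPM in CIA and 159 CPM in Cont. All markers of the 3 lists were detected in each library. Their part in these ratios, and in the vascular levels of Cxcl1 and Ccl11 given above, was not tested.

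For CIA+VFX against Cont 4 members were called higher, 7.84% against 4.03% of all 19368 measured genes: Cxcr2 at 1.97 (1.60 to 2.37), Cxcl11 at 1.70 (1.40 to 2.01), Cxcl5 at 1.19 (0.94 to 1.43) and Cxcl10 at 1.11 (1.07 to 1.15). Cxcl10 and Cxcl11 were called in their leading types too, the second through 1 cell. Called lower were 8, 15.7% against 2.53%: Ccl5, Xcl1, Ccr10, Cxcl2, Ccl9, Cxcr3, Cxcl3 and Ccl17, between -2.23 for Ccl5 and -1.02 for Ccl17. The member median was -0.38 against 0.04. In the leading cell type 4 of these were called lower as well, Ccl5, Cxcl2, Cxcl3 and Ccl17, whereas Xcl1, Ccl9 and Cxcr3 were under 2-fold and Ccr10 had too few UMIs. The comparisons share libraries, so their values for 1 gene are not independent.

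**Figure D5:**
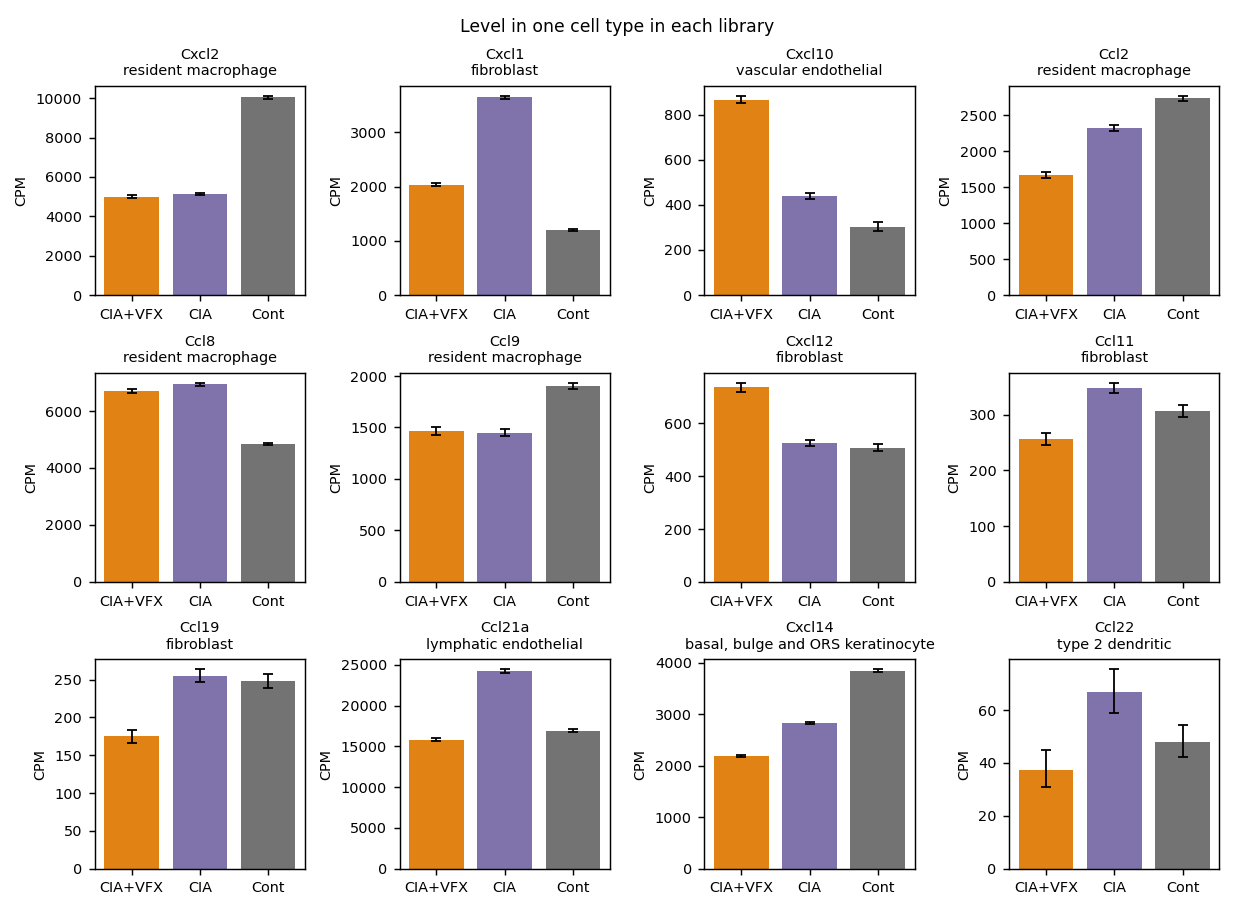
Level (CPM) of 12 chemokine genes in 1 cell type each, by library; bars start at 0 and error bars are exact Poisson intervals at 95%. Cxcl2 in resident macrophages is highest in Cont, Cxcl1 in fibroblasts highest in CIA, and Cxcl10 in vascular endothelium and Cxcl12 in fibroblasts highest in CIA+VFX.

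Pairs of member and cell type at the ends of each comparison were read with the number of cells behind them. For CIA against Cont the highest were Ccl24 in monocytes, Cxcl5 in fibroblasts and Cxcl1 in matrix and hair shaft keratinocytes. Ccl24 had 215 UMIs against 0 and was at least 7.44-fold higher against a floor of 3 counts in Cont, with 35.3% of the CIA UMIs in 1 cell. It ranked first only because Cont had no UMI, and its counting interval begins at 2.58 on the log2 scale. Cxcl5 was 23.5-fold higher, spread over 50 CIA cells. Cxcl1 in matrix and hair shaft keratinocytes was 18.9-fold higher, with 62.6% in 1 cell. The lowest were Ccl5 in monocytes, Ccl4 in conventional T cells and Ccl27a in sebocytes. Ccl5 in monocytes had 35 UMIs in CIA and 78 in Cont, of which 93.6% lay in 1 cell, and the 7 natural killer markers summed to 0.727 CPM in CIA monocytes, with 2 of them detected, and to 264 CPM in Cont monocytes, with 5 detected. Without the highest cell of each library its ratio was -0.97, against -4.42 with it. Ccl4 in conventional T cells was 10.2-fold lower, from 23 UMIs in CIA and 264 in Cont, and Ccl27a in sebocytes 9.85-fold lower, from 36 and 150 UMIs.

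The highest pairs for CIA+VFX against CIA were carried by few cells. Cxcl2 in type 1 dendritic cells had 228 UMIs in CIA+VFX, 49.6% of them in 1 cell, and 9 in CIA. Ccl1 in conventional T cells had 148 and 16 UMIs, with 73.6% of the CIA+VFX UMIs in 1 cell. Ccl21a in matrix and hair shaft keratinocytes had 165 and 6 UMIs, with 34.5% in 1 cell. The 7 lymphatic endothelial markers in that class had 57 UMIs (33.3 CPM, 7 detected) in CIA+VFX and 4 UMIs (5.68 CPM, 2 detected) in CIA, and their part was not tested. The lowest were Cxcl1 in matrix and hair shaft keratinocytes at -3.09 (-3.68 to -2.54), Ccl11 in basal, bulge and outer root sheath keratinocytes at -2.92 (-3.66 to -2.25) and Cxcl10 in suprabasal keratinocytes at -2.37 (-2.80 to -1.96). In CIA 1 cell held 62.6%, 24.3% and 54.8% of their UMIs. When types were taken from clusters the Ccl11 pair had a ratio of 0.22.

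For CIA+VFX against Cont the highest pairs were Ccl24 in monocytes, at least 6.05-fold higher against the same floor with an interval that begins at log2 2.27, Cxcl5 in fibroblasts, 23.9-fold higher, and Cxcl10 in monocytes, with 116 UMIs in CIA+VFX, 50% of them in 1 cell, and 1 in Cont. Among the lowest were Ccl4 in other gamma delta T cells, with 2 UMIs in CIA+VFX and 158 in Cont, and Ccl5 in monocytes, given above for its Cont cell. The 158 Ccl4 UMIs lay in 8 of 77 cells, with 41.1% in 1 cell, in the class whose natural killer markers are given above.

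Genes around the chemokine system were read from 3 lists over all kept cells, and a few of them also in the compared cell type with their highest mean. The counts of each list stand beside the shares of all measured genes. Between CIA and Cont 4.87% of all measured genes were called higher and 2.44% lower, between CIA+VFX and CIA 1.12% and 2.03%, and between CIA+VFX and Cont 4.03% and 2.53%. Of 13 atypical receptors and other ligands, 1 was called higher for CIA against Cont and 0 lower (median 0.12). Gpr182 and Ackr1, endothelial scavenging receptors that bind chemokines without signalling, had the highest ratios (1.22 and 0.93), and Ppbp and Ackr2 the lowest (-0.77 and -0.44). Between CIA+VFX and CIA, 1 was called higher and 1 lower (median -0.42), with Ackr1 (1.26) and Gpr182 (0.64) at the top and Rarres2, the gene of chemerin (-1.01), and Cd74 (-0.94) at the bottom. Between CIA+VFX and Cont, 2 were called higher and 1 lower (median -0.27), with Ackr1 (2.19) and Gpr182 (1.86) above and Ppbp (-1.14) and Ccrl2 (-0.87) below. Ackr1 measured 56.4 CPM in CIA+VFX, 23.6 CPM in CIA and 12.4 CPM in Cont over all kept cells, of which vascular endothelial cells were 6.86% in CIA+VFX, 6.43% in CIA and 1.96% in Cont. Within those cells it gave 569 CPM in CIA+VFX, 218 CPM in CIA and 194 CPM in Cont. Gpr182 within lymphatic endothelium gave 57.0 CPM in CIA+VFX, 56.5 CPM in CIA and 41.7 CPM in Cont.

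Of 16 genes of receptor signalling and desensitisation 0 were called in any of the 3 comparisons, with medians of 0.18, -0.23 and -0.07 for CIA against Cont, CIA+VFX against CIA and CIA+VFX against Cont. For CIA against Cont the G protein subunit gene Gnai2 (0.77) and the kinase gene Grk5 (0.51) were highest, and Rgs2 (-0.43) and Dock2 (-0.42) lowest. Between CIA+VFX and CIA, Gnai3 (0.08) and Rgs2 (0.08) were highest, and Rac2 (-0.75) and Pik3r5 (-0.45) lowest. Between CIA+VFX and Cont, Gnai2 (0.37) and Grk5 (0.31) were highest, and Dock2 (-0.76) and Pik3r5 (-0.65) lowest.

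Of 21 cytokines that induce chemokines and their feedback genes, 4 were called higher and 2 lower for CIA against Cont (median 0.14). Il4 (3.33), a type 2 cytokine, and Il1b (1.11), which induces CXCR2 ligands, were at the top, and Ifng (-1.85), the inducer of CXCR3 ligands, and Il1a (-1.82) at the bottom. Ifng itself measured 1.90 CPM in CIA+VFX, 2.03 CPM in CIA and 7.33 CPM in Cont. Both model libraries thus stood below Cont, whereas for Cxcl10 over all kept cells both stood above it. The Ifng ratio for CIA+VFX against CIA was -0.10 (-0.36 to 0.17). Within conventional T cells Ifng gave 62.2 CPM in CIA+VFX, 36.8 CPM in CIA and 129 CPM in Cont. Between CIA+VFX and CIA, 0 were called higher and 1 lower (median -0.31), with Il6 (0.44) and Nfkbiz (0.01) highest and Il17a (-1.37) and Lta (-0.95) lowest. Il17a measured 9.73 CPM in CIA+VFX, 25.1 CPM in CIA and 14.8 CPM in Cont, and within interleukin-17 gamma delta T cells 1038 CPM in CIA+VFX, 1461 CPM in CIA and 1028 CPM in Cont. Between CIA+VFX and Cont, 2 were called higher and 3 lower (median -0.27), Il4 (2.85) and Il6 (1.49) being highest and Ifng (-1.95) and Il1a (-1.94) lowest. Il6 measured 464 CPM in CIA+VFX, 342 CPM in CIA and 165 CPM in Cont. Within vascular endothelium Il6 gave 3608 CPM in CIA+VFX, 2266 CPM in CIA and 3290 CPM in Cont, so there CIA+VFX and Cont stood close. Il4 within innate lymphoid cells gave 41.7 CPM in CIA+VFX, 33.0 CPM in CIA and 15.2 CPM in Cont, from 40, 48 and 19 UMIs. All kept cells had 507 Il4 UMIs in CIA+VFX, 603 in CIA and 67 in Cont, so most lay outside innate lymphoid cells in each library.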

How the data were processed

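Skin cells of 3 libraries, 1 per group, were measured by 3' single-cell RNA sequencing. The values are whole-number UMI counts per gene and cell barcode, deposited by the authors in filtered matrices written by Cell Ranger 8.0.1, per the file headers. GRCm39 and FastQC 0.11.7 are named in the submitters' processing notes. The libraries held 18987 barcodes and 155210692 UMIs in CIA+VFX, 17675 and 130557879 in CIA, and 14529 and 143164803 in Cont.

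Barcodes with under 500 genes or over 15% mitochondrial UMIs were dropped, and then 7.59% of those of CIA+VFX, 7.07% of CIA and 5.81% of Cont were removed as likely doublets, by comparison with 2 simulated doublets per cell and a preset rate of 0.4% per 1000 barcodes. Over the mitochondrial limit were 1484 barcodes of CIA+VFX, 503 of CIA and 1503 of Cont. Cells were classed by marker lists (225 of 228 markers in the files), a class needing at least 3 detected markers and a score of at least 0.4 with no other lineage over 75% of it. UMIs were then summed per gene, class and library and divided by all UMIs of that class to give CPM. Poisson intervals of levels and conditional binomial intervals of ratios cover counting error only. Cells are not replicates, so no p-value was computed. The ratio script was tested on simulated data with 200 changed genes. Genes were compared with at least 50 UMIs in the 2 libraries and classes with at least 50 cells in each library.

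Results of 1 member are not reported here, although it is in the counts of members. The other members are all accounted for, those with at least 100 UMIs by their levels over all kept cells and in the class of highest mean. The 3 highest and 3 lowest member and class pairs of each comparison, with at least 100 UMIs, and the 2 highest and lowest genes of each surrounding list are named; other examples of a second class were chosen after their values were seen. Members and lists were chosen with earlier results of these data known. Alternatives were stricter and looser cell filters, no doublet removal, TMM factors from edgeR 4.0.16 in R 4.3.3, median-of-ratios factors, means over cells, thinning to 2000 UMIs, classes from 41 clusters (2000 variable genes without members, 40 components, resolution 1.5), a stricter gate, subtraction of 5% free RNA, UMI minimums of 10 and 200, and, chosen after seeing the data, leaving out the highest cell. Python 3.11.15 with numpy 2.4.6, scipy 1.17.1 and pandas 2.3.3 was used.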

Additional observations from a re-analysis of the deposited data

Results flagged for a closer look

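Among pairs with at least 100 UMIs, for 25 combinations of member and comparison some cell type was at least 2-fold higher and another at least 2-fold lower under the same contrast. Cell types in which 1 cell held over 20% of the UMIs on the higher side were then set aside, as was Cxcl10 in monocytes, and the 4 described here are those in which the leading cell type was at one end of what remained. With 1 library per group these differences were not tested.

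Cxcl3 for CIA against Cont was higher in fibroblasts, with a log2 ratio of 1.51 (16.9 CPM in CIA, 5.94 CPM in Cont), and lower in resident macrophages, with -1.67 (171 CPM in CIA, 546 CPM in Cont). For CIA+VFX against Cont Cxcl3 was higher in innate lymphoid cells, with 1.82, and lower in resident macrophages, with -1.18. Cxcl10 for CIA+VFX against Cont was higher in vascular endothelial cells, with 1.52 (867 CPM in CIA+VFX, 302 CPM in Cont), and lower in fibroblasts, with -1.12 (42.8 CPM in CIA+VFX, 93.2 CPM in Cont). Ccl3 for CIA against Cont was higher in monocytes, with 1.70 (129 CPM in CIA, 39.7 CPM in Cont, the second from 70 cells), and lower in resident macrophages, with -1.28 (298 CPM in CIA, 724 CPM in Cont).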

How the results depend on the processing

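Each alternative was set against 303 log2 ratios over all kept cells and named cell types. Changes of sign were counted only for ratios of at least 2-fold. None of those changed sign under the stricter filter, all barcodes, no doublet removal, TMM factors, median-of-ratios factors or leaving out the highest cell (301 ratios). Under these, 0 to 7 ratios of at least 2-fold came to lie under 2-fold, against 13 for means over cells, 16 of 300 for thinning to 2000 UMIs, 7 of 132 with types taken from clusters and 3 of 149 under the stricter gate. No ratio of at least 2-fold changed sign under the stricter gate or, among 142 ratios, after subtraction of free RNA. Ratios that moved by more than their counting interval numbered 160 of 303 with means over cells, 184 of 300 after thinning and 59 of 132 with types from clusters. The ratios of at least 2-fold that reversed were few. Ccl20 in suprabasal keratinocytes for CIA+VFX against Cont was 0.69 with means over cells and 1.03 after thinning. With types taken from clusters, Ccl11 in basal, bulge and outer root sheath keratinocytes for CIA+VFX against CIA was 0.22, and Ccr7 in type 2 dendritic cells for CIA against Cont was -0.13. The causes were not tested. The number of members at least 2-fold lower for CIA against Cont, 3, was 6 with means over cells and 7 after thinning, and the number at least 2-fold higher for CIA+VFX against CIA, 0, was 1 after thinning. The other counts of members past 2-fold stayed within 1.5 times. Scaling factors moved the median of all genes over all kept cells by at most 0.054, but within classes by up to -0.224 in resident macrophages, 0.256 in suprabasal keratinocytes and 0.27 in sebocytes, so ratios of that size there depend on the scaling. No paired analysis was possible because each group has 1 library. Depth limits the 6 members under 100 UMIs and the classes with few cells, and with n = 1 a library and its group cannot be told apart.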
